A study of Mus musculus with 2 samples.

Results

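Of 55484 distal open regions found in both control and Ngn3-OE late retinal progenitor cells (RPCs), 5548 are described here, those that climbed furthest in the ranking of peak strength after Ngn3 overexpression. They were chosen by measured values. Of 117165 distinct control peak intervals on the assembled chromosomes, 91741 overlapped an Ngn3-OE interval, and each was paired with the one of largest overlap. A pair was distal when the control summit, the point of strongest signal, lay more than 3 kb from any annotated transcript start. Each interval had a rank percentile of fold enrichment over local background, from 0 to 100 within the list of its own library. The rise was the Ngn3-OE percentile minus the control percentile, and the 10.0% of distal pairs with the largest rise, called rising pairs below, are the members. The size of the rise is therefore a description and not a finding.

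Open chromatin was mapped by ATAC-seq, in which the transposase Tn5 cuts accessible DNA, in late RPCs of newborn mice. Late RPCs are the progenitors that still make rods, bipolar cells and Müller glia. At postnatal day 1 the retinas received, by in vivo electroporation, either a control plasmid or an Ngn3 (Neurog3) overexpression plasmid, both marking cells with GFP, and GFP-positive cells were sorted 2 days later, 50000 per library. At that time the study's Ki67 staining found a smaller share of GFP-positive cells dividing in Ngn3-OE than in control retinas. Not all sorted cells were therefore still dividing. Each group had 1 library, so animals cannot be told apart from treatment, and no test between the groups was possible. Overexpression came from plasmids in the electroporated cells, and in a bulk library a site open in more cells cannot be told apart from a site more open in each cell.

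Neurogenin 3 is a basic helix-loop-helix transcription factor that pairs with E proteins and binds E-boxes, short sites around CANNTG, of which CATCTG is the form favoured by neurogenins. It drives endocrine cells in the pancreas and neurons in parts of the nervous system. Distal open regions are where most enhancers lie. In the postnatal retina such regions often carry sites for the homeodomain factors CRX and OTX2, which direct photoreceptor and bipolar genes and bind the core GGATTA, while SOX factors maintain progenitors and Müller glia.

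The labels were checked at the targeted gene. Within 3 kb of Neurog3 the control list held 0 intervals, and the Ngn3-OE list held 1, over the coding sequence, with 1591 tags at its summit, where plasmid and genomic DNA cannot be told apart. Tags at a summit were solved from each peak's fold enrichment and p-value, and the median was 9 tags in both libraries. The lowest local background was 0.261 tags for control and 0.257 for Ngn3-OE. At the retinal genes Pax6, Crx and Otx2 both lists held between 6 and 14 intervals.

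The 10-base E-box, the longer neurogenin-type motif named by the study, was present within 100 bp of the control summit in 362 rising pairs. The sequences around the 8 of these with the largest rise on the chromosomes from which sequence is printed here are shown, since the share of pairs with this motif is compared between rising and falling pairs below. They are plus-strand GRCm38 (mm10) sequence, with the E-box in capitals on whichever strand it was matched, and are named by the nearest protein-coding gene.
Sall1, chr8:89308540-89308690: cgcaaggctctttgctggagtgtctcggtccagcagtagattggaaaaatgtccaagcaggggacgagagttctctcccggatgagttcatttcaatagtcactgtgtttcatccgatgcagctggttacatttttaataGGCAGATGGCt
Ccdc191, chr16:43945484-43945589: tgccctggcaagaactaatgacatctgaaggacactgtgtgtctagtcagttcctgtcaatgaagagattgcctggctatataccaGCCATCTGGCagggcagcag
Rnf130, chr11:50062295-50062410: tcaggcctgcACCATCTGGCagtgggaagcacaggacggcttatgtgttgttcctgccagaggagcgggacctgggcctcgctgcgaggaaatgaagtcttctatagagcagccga
Kcnj5, chr9:32320342-32320442: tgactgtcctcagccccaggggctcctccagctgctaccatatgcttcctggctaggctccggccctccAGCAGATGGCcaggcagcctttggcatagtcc
Jazf1, chr6:52932905-52933013: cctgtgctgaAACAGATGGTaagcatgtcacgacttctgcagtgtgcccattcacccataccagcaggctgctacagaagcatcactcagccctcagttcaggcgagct
Orai2, chr5:136164201-136164301: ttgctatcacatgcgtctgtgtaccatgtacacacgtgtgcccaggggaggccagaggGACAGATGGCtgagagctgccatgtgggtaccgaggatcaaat
Kmt2e, chr5:23403729-23403829: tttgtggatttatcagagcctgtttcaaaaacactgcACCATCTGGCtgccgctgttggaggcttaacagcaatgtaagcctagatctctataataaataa
Nwd2, chr5:63300383-63300483: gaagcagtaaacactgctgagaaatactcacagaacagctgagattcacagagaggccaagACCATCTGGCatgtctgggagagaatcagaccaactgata
The E-box lay 8.5 bp from the control summit in the Kmt2e sequence and 12.5 bp from it in the Orai2 sequence. In the Sall1 sequence it lay 94.5 bp away, at the edge of the searched window.

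A second motif, GGATTA, was present in 1405 rising pairs. The sequences below are from the 3 largest rises that held it, on those same chromosomes, among pairs whose Ngn3-OE interval overlapped 1 control interval, chosen after their values were seen. Capitals mark GGATTA.
Fam151b, chr13:92471810-92471960: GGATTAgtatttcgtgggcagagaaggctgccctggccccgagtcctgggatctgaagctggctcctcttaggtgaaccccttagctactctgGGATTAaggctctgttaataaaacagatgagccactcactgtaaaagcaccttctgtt
Cyyr1, chr16:85370324-85370424: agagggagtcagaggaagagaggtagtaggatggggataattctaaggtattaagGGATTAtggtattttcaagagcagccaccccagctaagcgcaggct
Tox3, chr8:90311306-90311406: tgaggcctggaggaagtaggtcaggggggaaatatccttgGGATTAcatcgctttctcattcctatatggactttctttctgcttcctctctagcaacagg
In the Cyyr1 and Tox3 sequences the match was centred 7.5 bp from the summit. The Fam151b window held 2 matches.

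Rising pairs were weak peaks in control that became medium-strength peaks in Ngn3-OE. Their median control percentile was 21.3 and their median Ngn3-OE percentile 61.8. The median summit held 5 tags in control, with a range of 3 to 27, and 10 tags in Ngn3-OE, with a range of 6 to 93. The median fold enrichment went from 4.40 to 7.95, and the median interval widened from 99 to 140 bp. Over all shared distal pairs the medians were 9 and 10 tags. The rise ran from 28.5 to 89.8 points with a median of 37.5, against a median change of 1.66 points over all shared distal pairs.

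**Figure D1:**
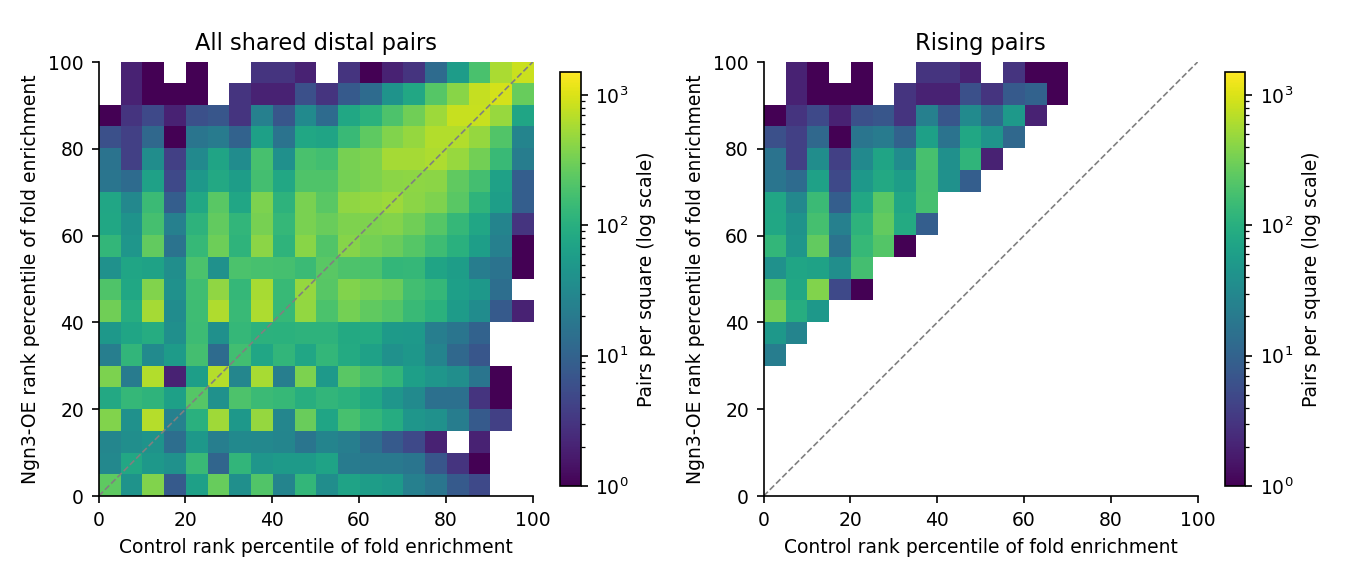
Rank percentile of fold enrichment in control (x axis) and Ngn3-OE (y axis) for all 55484 shared distal pairs (left) and the 5548 rising pairs (right), in squares of 5 points, coloured by the number of pairs on a log scale. The dashed line marks equal percentiles, and the rising pairs fill the upper left, with control percentiles up to 65.7.

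Few rising pairs ended among the strongest peaks. An Ngn3-OE percentile of 90 or more was reached by 57 (1.03%), against 8.10% of all shared distal pairs, and 421 (7.59%) held at least 20 tags, against 19.6%. In control, 3670 of 5548 rising pairs (66.1%) had at most 5 tags, against 20.2% of all shared distal pairs. Summit tags were at least 2 times higher in Ngn3-OE in 3849 rising pairs (69.4%), while 8.65% of all shared distal pairs met that limit, a measure tied to the rule. A 4-fold increase was found in 124 rising pairs (2.24%) and in no pair outside them (0.223% of all shared distal pairs), which the rule favours. The Ngn3-OE interval overlapped 1 control interval in 74 of these 124 (59.7%), and several in the rest.

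Counting error was wide at these depths. The exact 95% Poisson intervals of the control and Ngn3-OE tags did not overlap in 153 rising pairs (2.76%), and 0.625% of all shared distal pairs were separated in that direction. The rule favours such pairs, since the tags were solved from the fold enrichment that it ranked. Another 194 pairs separated in that way were not members. A pair above a control percentile of 71.5 could not rise by 28.5 points, which left 29.9% of shared distal pairs out of reach. All such intervals here cover counting error only.

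At the limit itself, 261 pairs shared the same values, 5 tags in control and 8 in Ngn3-OE, percentiles of 28.0 and 56.4, and a rise of 28.5. The order in the list placed 184 of them inside and 77 outside. The last pairs inside were nearest Trabd2b, 2610528J11Rik and Hivep3, and the first outside were nearest Macf1, Gm853 and Zbtb40, all with these same values.

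The very largest rises depended on how intervals were paired. At 8 of the 10 largest, the Ngn3-OE interval spanned 2 control intervals, and the member was the smaller of them. The largest rise of all was in an intron of Nln, which encodes the peptidase neurolysin, where the member at chr13:104049332-104049407 had 5 tags and its Ngn3-OE interval 61. A neighbouring control interval under the same Ngn3-OE interval had 32 tags, and the member's summit was 292 bp from the Ngn3-OE summit. In Adgrf4, an adhesion G protein-coupled receptor gene, the member at chr17:42680815-42680900 rose from 4 to 47 tags beside a control interval with 36. In Tec, a tyrosine kinase gene, it rose from 5 to 33 tags beside a control interval with 40, more than the Ngn3-OE interval itself.

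The same held for members that ended at an Ngn3-OE percentile of 90 or more. Near Myt1l, which encodes a neuronal zinc finger repressor, the member had 11 tags, the Ngn3-OE interval 49 and the larger control interval 54. Near Tbl1x the values were 9, 52 and 55 tags, and near 1520401A03Rik 12, 71 and 87 tags. In Nrg3, a neuregulin gene, they were 5, 37 and 21 tags. Of the 57 members at or above the 90th percentile, 27 had 1 control interval under the Ngn3-OE interval.

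Among all rising pairs this was uncommon. The Ngn3-OE interval overlapped more than 1 control interval in 315 rising pairs (5.68%), against 1.62% of all shared distal pairs. In 258 of them another of those control intervals had more tags than the member, and in 22 of the 258 the Ngn3-OE tags were still at least 2 times those of the larger interval. Control and Ngn3-OE summits lay within 100 bp of each other in 93.2% of rising pairs, with a median distance of 23 bp.

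Where the Ngn3-OE interval overlapped 1 control interval, the largest rises were smaller in tags. These loci were chosen after their values were seen, outside chromosome 18, which left out pairs that would have ranked among them, such as that near Smad2 with 3 and 16 tags. The sequences shown above also left out that chromosome, and the Smad2 pair held GGATTA and rose by 77.5 points, more than the 73.8 points of Fam151b. The region at chr4:125826514-125826640, 198 kb from Csf3r, the receptor of granulocyte colony-stimulating factor, had 3 tags in control (0.619 to 8.77, exact Poisson interval) and 18 in Ngn3-OE (10.7 to 28.4). An intronic region of Fhit, a dinucleotide hydrolase gene, at chr14:10286204-10286271, had 3 and 17 tags. The region at chr9:95613890-95613962, 23.7 kb from Pcolce2, an enhancer of procollagen processing, had 3 and 19 tags. These loci were chosen for their rise, so the distance between the libraries' counting intervals is a description only.

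Introns held 5 of the next 7. The intronic region of Ptprk, a receptor tyrosine phosphatase, and that of Baiap2, an actin regulator at synapses, each had 3 tags in control and 16 in Ngn3-OE. Regions in Grb2, an adaptor of receptor tyrosine kinases, and in Ccdc93, and a region 17.8 kb from the olfactory receptor gene Olfr996, each had 3 and 15 tags. Regions in Fam151b and 128 kb from Cpa6, a carboxypeptidase gene, each had 3 and 14 tags. None of these 10 windows held the 10-base E-box, and 1, that of Fam151b, held GGATTA.

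The rising pairs with the E-box shown above had like tag counts. The Rnf130 region, in an intron of a ubiquitin ligase gene, and the Kcnj5 region, in an intron of a potassium channel gene, each had 4 tags in control and 18 in Ngn3-OE. The Ccdc191 region had 3 and 13 tags. The regions in introns of Jazf1, a zinc finger gene, and Orai2, a calcium channel gene, each had 3 and 12 tags. The Kmt2e region, in an exon of the noncoding gene Gm42509, had 3 and 11 tags. Near Nwd2 the values were 4 and 16 tags, with a second control interval of at most 4 tags under the same Ngn3-OE interval. Near Sall1, a zinc finger transcription factor gene, the member had 4 tags, the Ngn3-OE interval 19 and a second control interval 11.

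**Figure D2:**
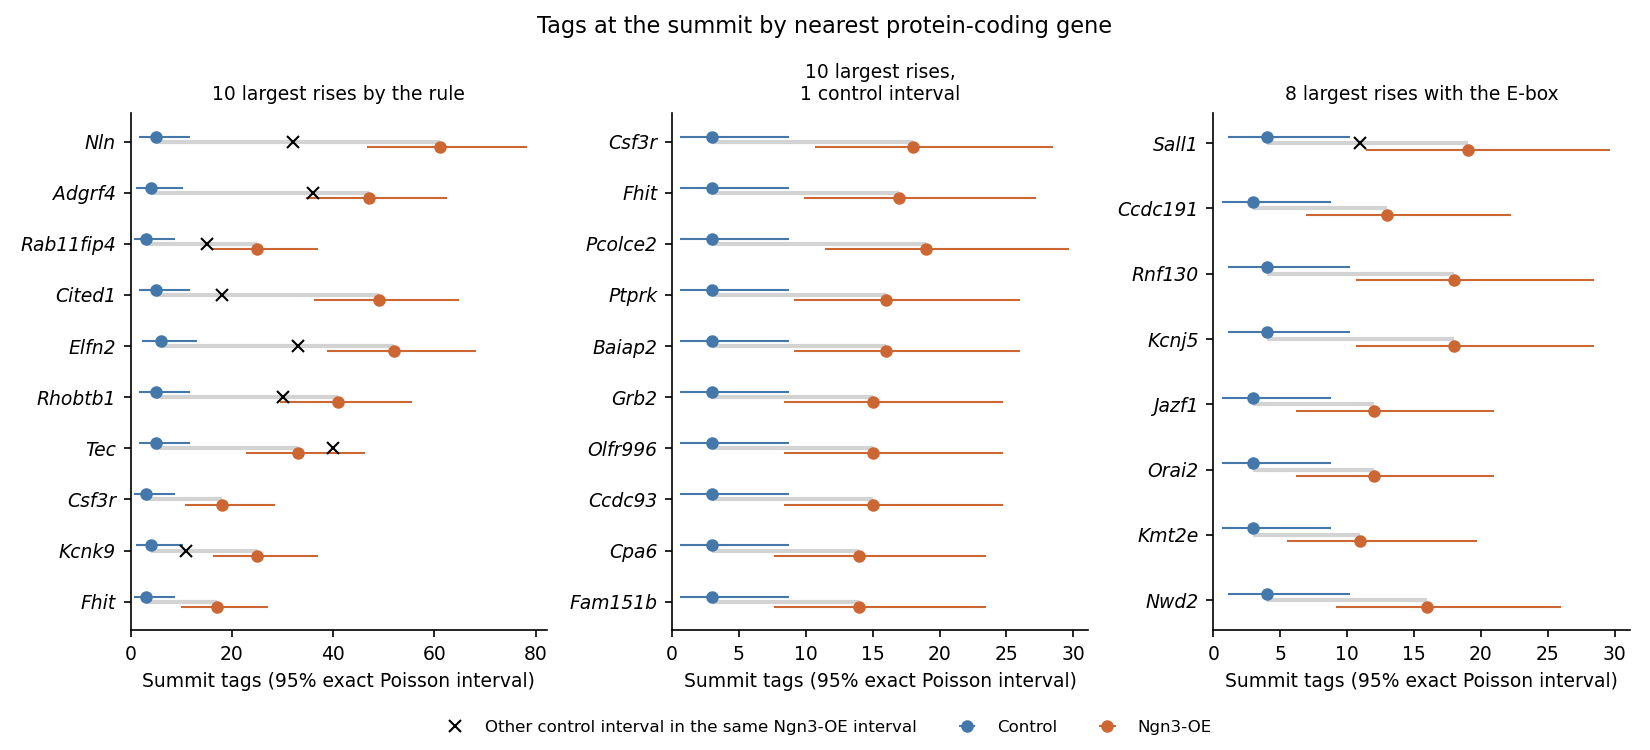
Summit tags in control (blue) and Ngn3-OE (orange) with 95% exact Poisson intervals for the 10 largest rises by the rule, the 10 largest outside chromosome 18 where the Ngn3-OE interval overlapped 1 control interval, and the 8 largest outside chromosome 18 with the 10-base E-box, by nearest protein-coding gene. Crosses give a stronger control interval under the same Ngn3-OE interval, which lay at 11 to 40 tags for 8 of the first 10 and at 11 tags for Sall1.

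All 32 named intervals of these groups had 1 near-identical copy on the chromosomes, their own.

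The base content around the summits was not used by the rule. The E-box and the SOX motif were, however, already reported by the paper from these same libraries. It found this E-box to be the leading motif where chromatin opened, and motifs of SOX factors to lead where it closed. The direction of the E-box and SOX differences given below was therefore largely known beforehand, and these differences are not independent of that result. The 10-base E-box was present in 6.52% of rising pairs (5.90 to 7.21, 95% Wilson interval) and 5.06% of all other shared distal pairs, a difference of 1.46 percentage points (0.812 to 2.17, Newcombe interval). Against falling pairs, the 10% with the largest loss of rank, the difference was 3.98 points (3.22 to 4.76), since 2.54% of those held it. The share over all shared distal pairs was 5.21%. The core CATCTG, which the 10-base motif contains, was in 29.3% of rising and 26.1% of other pairs. CAGCTG, the E-box of many other helix-loop-helix factors, was lower, at 20.1% and 22.8%, a difference of -2.75 points (-3.85 to -1.62).

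Among the 8 motifs, GGATTA had the largest difference in percentage points between rising and all other pairs, while the ratio of shares was not compared. It was present in 25.3% (24.2 to 26.5) of rising pairs, 18.2% of all other pairs and 9.25% of falling pairs. The difference from all other pairs was 7.13 points (5.96 to 8.34), and from pairs that neither rose nor fell it was 6.02 points (4.83 to 7.23). The share over all shared distal pairs was 18.9%, and in shared promoter pairs it was 9.10%. The homeodomain core TAATTA went the other way, with 8.92% in rising and 10.4% in other pairs.

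The SOX motif, counted when the window held CCTTTGT or else the form CCATTGT, was less frequent in rising pairs, at 6.83% (6.20 to 7.53) against 9.59% in all other pairs, a difference of -2.75 points (-3.44 to -2.02). In falling pairs the share was 17.1%. Against the pairs that neither rose nor fell, with 8.65%, the difference was -1.82 points (-2.51 to -1.08). The AP-1 motif TGANTCA (6.63% and 6.51%) and the nuclear receptor motif AGGTCA (14.8% and 14.2%) differed from other pairs by intervals that included 0. Among pairs with at least 10 control tags, with members chosen anew by the same percentiles, the difference from all other pairs was 12.1 points for GGATTA and -4.24 points for SOX.

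Rising pairs were weaker in control than the rest, so the shares were also compared within steps of 10 points of control percentile, using the 6 steps from 0 to 60 that held at least 20 rising pairs. The E-box share of rising pairs was above that of the other pairs in 6 of 6 steps, by 1.33 to 3.65 points, with the interval above 0 in 4. For the core CATCTG it was above in 6 of 6, by 0.028 to 7.40 points, with the interval above 0 in the 3 steps from 30 to 60 and including 0 in the 3 lower steps. At 3 control tags the core difference was -0.99 points (-4.96 to 3.01). For GGATTA it was above in 6 of 6, by 3.64 to 14.5 points, with the interval above 0 in 6. For SOX it was below in 6 of 6, with the interval below 0 in 2. Neighbouring pairs are not independent, which these intervals do not take in.

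**Figure D3:**
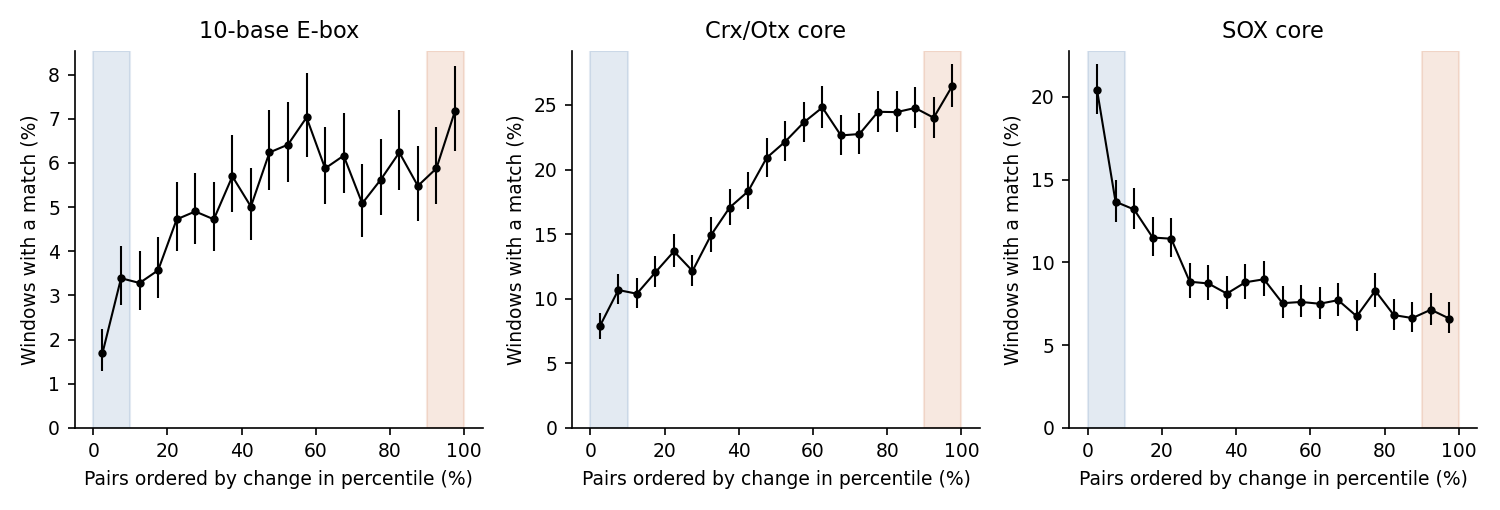
Share of windows with a motif match (y axis, %, with 95% Wilson intervals) for all shared distal pairs in 20 bins ordered by change in percentile (x axis), for the 10-base E-box, GGATTA (titled Crx/Otx core) and the SOX core. Orange shading marks rising and blue shading falling pairs. The E-box share was 7.17% in the highest bin but also 7.03% in the bin from 55 to 60%, while the SOX share was high only on the falling side, at 20.4% in the lowest bin.

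Along the whole order the E-box and GGATTA shares were lowest on the falling side. In the upper part of the order the E-box share was uneven, at 7.03% (6.14 to 8.04) in the bin from 55 to 60%, 5.08% (4.33 to 5.96) in the bin from 70 to 75% and 7.17% (6.27 to 8.19) in the highest. GGATTA stood at 23.6% in the bin from 55 to 60%, where the median change was 5.09 points, and at 26.5% in the highest bin, where it was 45.8 points. In the 555 pairs with the largest rises the E-box was in 8.83% (6.74 to 11.5), and in the 555 with the largest falls it was in 0.721%. The SOX motif was in 5.95% and 29.0% of these.

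Matches to the E-box and GGATTA were denser near the summit than farther out. Within 40 bp of the control summit there were 41.3 E-box matches per 1000 rising pairs, against 5.50 in an equal length 160 to 240 bp away, a ratio of 7.51. The ratio was 9.95 in pairs that neither rose nor fell and 6.43 in falling pairs. For GGATTA, 187 matches per 1000 rising pairs lay within 40 bp, against 31.2 farther out, a ratio of 5.98, while the ratio was 4.73 in pairs that neither rose nor fell and 1.70 in falling pairs. SOX matches were about as dense near rising summits as farther out, with a ratio of 1.06, and denser near falling summits, with a ratio of 2.91.

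**Figure D4:**
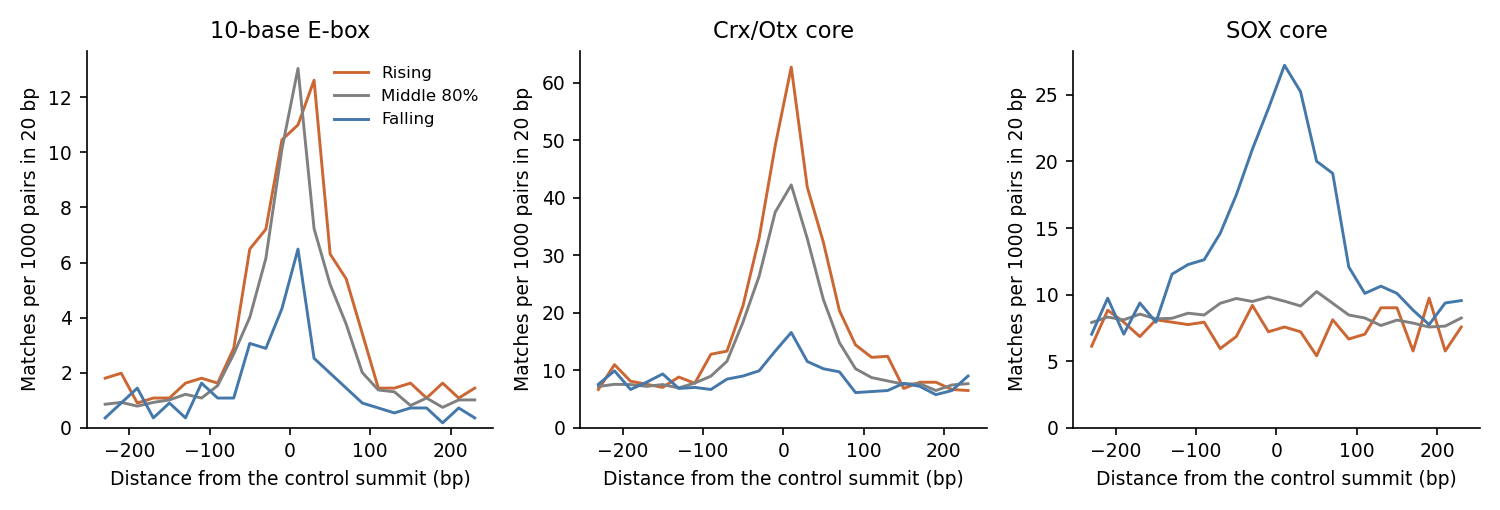
Motif matches per 1000 pairs in 20 bp steps (y axis) by distance from the control summit (x axis, bp) for rising (orange), falling (blue) and all remaining shared distal pairs (grey). The orange line is highest in the steps next to the summit for GGATTA (titled Crx/Otx core), highest 20 to 40 bp from it for the E-box, at 12.6 per 1000 against 10.5 and 10.995 in the steps beside the summit, and nearly level for SOX.

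The E-box and GGATTA were mostly found in different rising pairs. Both were present in 37 windows (0.667%), near the 0.721% of all shared distal pairs, and 1730 windows (31.2%) held at least 1 of them, against 23.4% of all shared distal pairs. The E-box and the SOX motif occurred together in 29 windows (0.523%), against 0.425% of all shared distal pairs. One such window was in an intron of Thrb, the thyroid hormone receptor gene of cones, where tags went from 3 to 9.

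Rising pairs lay in introns a little more often than the rest, 54.7% against 51.9%, a difference of 2.85 points (1.47 to 4.23). Among pairs with at least 10 control tags, with members chosen anew, the difference was 5.04 points. Intergenic summits made up 41.8% and 44.3%. Windows mostly of repeats were 4.15% of rising and 3.04% of other pairs. Distance to the nearest protein-coding start was alike, with a median of 29782 bp in rising pairs and 29888.5 bp in all shared distal pairs.

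Rising pairs were spread over many genes. Of 11256 protein-coding genes that were nearest to a shared distal pair, 3599 had at least 1 rising pair, 2450 of them exactly 1 and 78 at least 5. The genes with the most rising pairs were ranked by number, not by share, and the interval of the share included the 10.0% set by the rule at 7 of these 10 genes, the others being Tbc1d22a (20.8%, 11.7 to 34.3), Pard3b and Ttll7. Of them, Tbc1d22a, a TBC-domain protein gene, had 10 of 48 distal pairs, Auts2, a neurodevelopmental chromatin gene, 10 of 66, and Celf4, a neuronal RNA-binding protein gene, 10 of 89. Rbfox1, a neuronal splicing regulator, and Ajap1, a junction protein gene, had 9 each, of 55 and 49. Pard3b, a polarity gene, had 8 of 25 (32.0%, 17.2 to 51.6) and Ttll7, a tubulin glutamylase gene, 8 of 26 (30.8%, 16.5 to 49.99). Zfhx3 and Camta1, transcription factor genes, and Map3k7, which encodes the kinase TAK1, had 8 each of 46, 52 and 44. At Celf4 another 12 pairs fell.

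By share among genes with at least 10 distal pairs, the highest was Ptpn3, a tyrosine phosphatase gene, with 7 rising pairs of 11 (63.6%, 35.4 to 84.8) and 0 falling. All 7 lay in its introns. Their control and Ngn3-OE tags were 8 and 25 at 21.4 kb upstream of the nearest start site, 3 and 11 at 14.7 kb upstream, 5 and 11 at 14.6 kb upstream, 6 and 13 at 5.28 kb downstream, 6 and 18 at 7.71 kb, 7 and 13 at 26.2 kb, and 5 and 9 at 34.0 kb. The pairs at 14.7 and 14.6 kb shared 1 Ngn3-OE interval. Of the other pairs there, the strongest in Ngn3-OE went from 19 to 37 tags but began at a percentile of 83.6.

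Cdk5rap2, a centrosome gene, and Lipi, a lipase gene, each had 5 of 12, and at Lipi another 4 fell. Ski, a repressor in TGF-beta signalling, had 4 of 10. These genes were picked as the extremes of 1537 genes with at least 10 pairs, and their shares are descriptions.

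**Figure D5:**
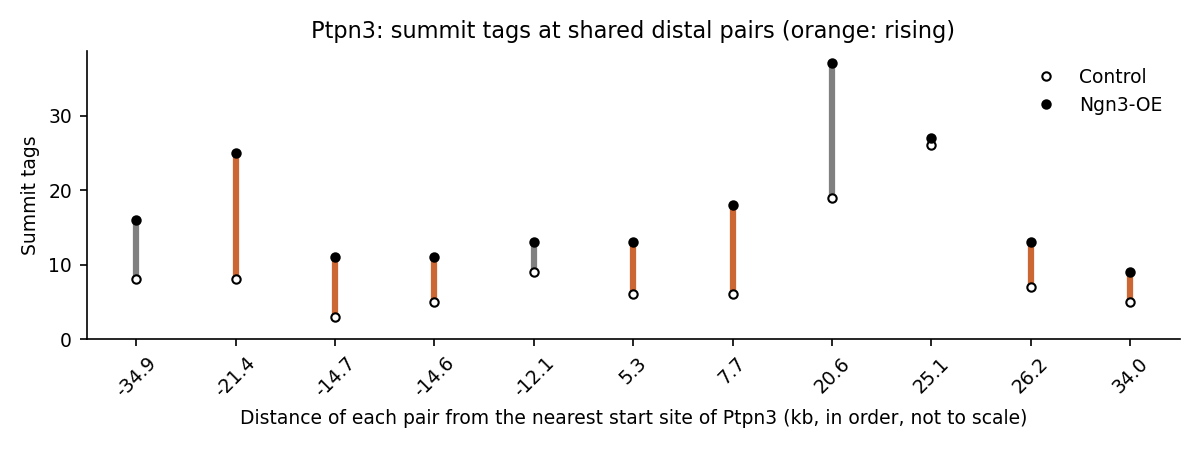
Summit tags in control (open points) and Ngn3-OE (filled points) for each shared distal pair nearest to Ptpn3, ordered by distance from the nearest start site of the gene (kb, negative upstream, not to scale). Orange lines mark the 7 rising pairs, none above 25 tags in Ngn3-OE.

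The rising shares at gene lists were read against the share set by the rule, 10.0%. In each of 16 lists, the rising share of the distal pairs nearest to its genes had a Wilson interval that included that value, and the shares ran from 5.68% to 14.6%. Falling pairs were also 10% of shared distal pairs by choice. The interval of the falling share lay above that in 2 of the 16 lists, Müller glia and SOX factors. These counts follow the roles of the genes.

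Among genes downstream of neurogenins, 21 of 269 distal pairs rose by the rule (7.81%, 5.16 to 11.6), and 21 fell. The share was 2.20 points below that at other genes (a difference of -2.20, -4.86 to 1.64). Among pairs with at least 10 control tags, with members chosen anew, it was 3.81 points above (-0.884 to 10.4). In the upper 5% of rises the difference was -3.16 points (-4.23 to -0.732), the 1 alternative of 16 whose interval did not include 0. Sox4, a neuronal differentiation factor, had 4 rising and 2 falling of 26, with tags of 6 and 13 in the largest rise. Elavl2, a neuronal RNA-binding protein gene, had 3 of 13, and the E-box was present in those with 6 and 12 and with 5 and 11 tags. Nhlh2, a helix-loop-helix factor of young neurons, had 1 of 5, with 3 and 7 tags. At Ebf1, in the same list, 2 rose and 3 fell of 27. The Notch pathway had 12 of 193 rising (6.22%) and 22 falling. The rising pairs included 4 of 19 at Id4, an inhibitor of helix-loop-helix factors, where the E-box was in the pairs with 6 and 16 and with 6 and 11 tags. Another 2 pairs fell there. At Hey1, a Notch target, 2 of 14 rose and 1 fell, with 9 and 25 tags in 1 of the rising pairs.

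Retinal ganglion cell genes had 26 of 211 rising (12.3%, 8.55 to 17.4) and 17 falling. Gap43, a growth cone protein gene, had 3 rising and 1 falling of 14, with 5 and 16 tags in the largest rise. Isl1, a homeodomain factor of ganglion and bipolar cells, had 3 rising and 2 falling of 13. Rod and photoreceptor genes had 21 of 214 rising (9.81%) and 16 falling. Otx2 and Prdm1, regulators of photoreceptor fate, had 3 rising of 14 and 3 of 20, with 5 and 11 tags and 6 and 13 tags in the largest. At Otx2 another 2 fell, and Rora, a nuclear receptor gene, had 2 rising and 6 falling of 33. Cone genes had 12 of 89 rising (13.5%) and 4 falling, including both pairs of Gnat2, the cone transducin gene, with 5 and 11 and with 5 and 9 tags.

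Bipolar genes had the lowest share, 10 of 176 (5.68%, 3.12 to 10.1), with 25 falling (14.2%, 9.81 to 20.1). Gabrr1, a GABA receptor gene of bipolar cells, had 1 of 4, with 4 and 15 tags, while Nfib and Nfia, nuclear factor I genes, had 3 rising and 6 falling of 47 and 2 rising and 4 falling of 17. Nfib is also in the Müller glia list. Amacrine and horizontal cell genes had 24 of 263 rising (9.13%) and 31 falling. Tcf4, which encodes an E protein, had 7 rising and 3 falling of 24 there, with 4 and 13 tags in the largest rise. Tfap2b had 3 rising and 3 falling of 17, and Meis2 2 rising and 1 falling of 30. Pax6 had 2 rising and 3 falling of 13, and Ebf1 2 rising and 3 falling of 27. Müller glia genes had 22 of 236 rising (9.32%) and 33 falling (14.0%, 10.1 to 18.99). Sox9, a progenitor and glial factor, had 4 rising, all holding GGATTA, and 3 falling of 40, and Glul, glutamine synthetase, 3 of 5, with 5 and 13 tags in the largest. Progenitor genes had 27 of 381 rising (7.09%) and 40 falling. Foxp1 had 4 rising and 3 falling of 21, and Six3 2 rising and 3 falling of 35. At Lhx2 3 of 10 rose and 0 fell, and the largest rise had 3 and 12 tags beside a control interval of 7.

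Cell cycle genes had 9 of 104 rising (8.65%) and 11 falling, with 6 and 16 tags in the pair near E2f1, a regulator of S phase entry. Cell cycle exit genes had 9 of 99 rising (9.09%) and 6 falling. The single distal pair of Cdkn1b, which encodes the inhibitor p27, rose from 11 to 24 tags at 3.09 kb from its start. Synapse and axon genes had 63 of 592 rising (10.6%) and 60 falling. Ncam1, a neural adhesion molecule, had 7 rising and 2 falling of 37, and Map2, a dendritic microtubule protein, 5 rising and 0 falling of 16. Dcc, a netrin receptor, had 5 rising and 4 falling of 26. Nrxn3 had 5 rising and 4 falling of 53, and Shank2 4 rising and 4 falling of 34. Pancreatic endocrine genes had 22 of 175 rising (12.6%) and 24 falling (13.7%), with 7 rising and 8 falling of 40 at Tox3.

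SOX factor genes had 18 of 219 rising (8.22%) and 31 falling (14.2%, 10.2 to 19.4). AP-1 and immediate early genes had the highest share, 12 of 82 (14.6%, 8.57 to 23.9), and 9 falling, with 3 of 16 rising at Klf4, 3 of 11 at Jun, where 3 fell, and 2 of 8 at Egr3. TGF-beta and BMP genes had 24 of 214 rising (11.2%) and 25 falling, with 3 rising and 2 falling of 31 at Smad2, a signal transducer. The largest rise at Smad2 had 3 and 16 tags. Some genes stand in more than 1 list.

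Rising pairs had a rising neighbour slightly more often than other pairs. The nearest shared distal pair within 25 kb was itself rising for 520 of 4424 rising pairs (11.8%) and for 9.72% of the other pairs, a difference of 2.03 points (1.07 to 3.05). Without Ngn3-OE intervals that overlapped several control intervals the difference was 1.58 points (0.632 to 2.60). Ranked by tags it was 4.13 points, and among pairs with at least 10 control tags it was 0.0043 points (-1.43 to 1.58). With −log10 q of at least 5 in both lists it was 1.08 points (-0.158 to 2.43), and the interval again included 0. The longest runs were 4 rising pairs in a row, at Ldlrad3, at Mpzl1 and Rcsd1, and at Hspa12a and Eno4. At Ldlrad3, a low-density lipoprotein receptor family gene, the 4 pairs each had 4 tags in control and 7 to 13 in Ngn3-OE over 22.9 kb.

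Peaks found in only 1 library were also counted around rising pairs. An Ngn3-OE-only distal peak lay within 50 kb of 74.5% of rising and 74.1% of other pairs, a difference of 0.38 points (-0.84 to 1.58). Among pairs with at least 10 control tags, with members chosen anew, it was 1.78 points (0.0645 to 3.43), with an interval above 0. Within 25 kb the difference was -0.91 points (-2.29 to 0.468). A control-only distal peak lay within 50 kb of 65.7% and 67.1%, a difference of -1.39 points (-2.72 to -0.0852). The promoters of the nearest genes moved little, with a median change of -0.06 percentile points for 3107 genes with at least 1 rising pair, -0.39 for 73 genes with at least 5 and -0.12 for 5980 genes with none.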

How the data were processed

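The authors made ATAC-seq libraries from sorted control and Ngn3-OE late RPCs, aligned reads to mm10 with Bowtie2, kept short fragments and called peaks with MACS2 in each library separately. The deposited lists hold, per summit, a score, the fold enrichment (a ratio to local background) and −log10 p and q. Lines were merged to 1 per interval by the highest fold enrichment. Whole tags at the summit were solved from the deposited fold enrichment and −log10 p for 100% of intervals (tolerance 0.005), and the length to which a tag was extended is not given in the sources used here. Start sites came from the comprehensive GENCODE release M21, and sequence from GRCm38. Motifs were searched on both strands in the 201 bp around the control summit; the 10-base E-box contains CATCTG. Shares have Wilson intervals and differences Newcombe intervals.

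Members and gene lists were chosen with earlier results of these data known. Named were the 10 largest rises, the 10 largest at an Ngn3-OE percentile of at least 90, the 10 genes with most members, the 5 with the highest share among genes with at least 10 pairs, leading genes of each list, the 8 largest rises with the E-box outside chromosome 18 and 3 pairs on each side of the limit. The 10 largest rises with 1 control interval and the 3 with GGATTA, both outside chromosome 18, were added after values were seen; sequence of chromosome 18 is not reported here. Scripts used Python 3.11.15, pysam 0.24.0, SciPy 1.17.1 and blastn 2.17.0 (copies at 95% identity over 90% of an interval), and the statistics were tested on simulated data. Alternatives covered ranking, limits, distance, overlap, depth, windows and start sites. Intervals outside the assembled chromosomes (159 control and 150 Ngn3-OE lines) and the authors' differential regions were not used, and some genes that the rules named are not reported here.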

Additional observations from a re-analysis of the deposited data

How the results depend on the processing

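No paired analysis was possible because each group had 1 library, and no library could be left out. The E-box difference ran from 0.867 to 3.98 points over 20 alternatives, GGATTA from 6.97 to 12.1 over 15, SOX from -10.2 to -1.57 over 19 and introns from 2.40 to 5.04 over 15, with intervals that did not include 0 in any of these. The E-box difference was 3.98 points against falling pairs and 3.25 with the core CATCTG. SOX gave -10.2 against falling pairs and -1.57 within 50 bp of the summit.

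With at least 10 control tags, 206 of 2666 members were shared with the main set. There SOX gave -4.24, GGATTA 12.1, introns 5.04, the neurogenin cascade 3.81, rising neighbours 0.0043 and nearby Ngn3-OE-only peaks 1.78 points (0.0645 to 3.43). GGATTA gave 9.10 by tag ranking, 9.80 with −log10 q of at least 5 and 8.996 with percentiles among distal pairs. Rising neighbours gave 4.13 by tag ranking and 1.08 (-0.158 to 2.43) with −log10 q of at least 5, the neurogenin cascade gave -3.16 (-4.23 to -0.732) in the upper 5%, and Ngn3-OE-only peaks within 25 kb gave -0.91.

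The share of members with tags at least 2 times higher, 69.4%, was 75.6% by tag ranking, 95.9% in the upper 5%, 41.0% in the upper 20%, 68.0% beyond 1 kb, 67.2% with summits within 100 bp, 43.0% with −log10 q of at least 5, 24.6% with at least 10 control tags and 66.8% with 1 control interval per Ngn3-OE interval. The causes of these movements were not tested. The alternatives on pairing, basic start sites, repeats, ties and left-out chromosomes, and those for GGATTA and for Ngn3-OE-only peaks other than the distance, were chosen after seeing the data.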

Other observations

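Rising pairs made up 8.48% (7.51 to 9.57) of shared distal pairs on chromosome 9 and 11.7% (10.5 to 13.0) on chromosome 15, the extremes. Ties at the limit were placed by chromosome order, and with all ties included the shares were 8.98% and 11.7%.

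Runs of 4 rising pairs at 2 further places joined neighbouring genes. Across Mpzl1, a cell surface glycoprotein gene, and Rcsd1, the tags went from 8, 7, 4 and 7 to 16, 12, 12 and 19 over 26.2 kb. Across Hspa12a, a heat shock protein family gene, and Eno4, an enolase family gene, they went from 3, 3, 5 and 6 to 8, 16, 11 and 16 over 39.5 kb.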
